A study of Mus musculus with 4 samples.

Results

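Imprinted growth control genes were followed across 4 cultures of immortalized mouse embryonic fibroblasts, a line of connective tissue cells grown from mouse embryos. The genes were H19, Igf2, Dlk1, Meg3, Grb10, Peg3, Mest, Cdkn1c, Plagl1 and Ndn, 10 of 23366 genes listed in the RNA-seq tables, and they were taken by symbol from a list drawn up with earlier results of these data known. Each of the cultures, with 1 library apiece, expressed Myc, MycN, a protein labelled Minimal Myc, or carried the vector alone. All cultures had received adenoviral Cre recombinase, which cuts out DNA between its recognition sites, and were harvested after a recovery given as 48 with no unit. Per the series design, Myc was deleted in the cells with the vector alone, and the question was how expression differs when Myc, MycN or Minimal Myc is present. The labels name no floxed allele and no mouse strain, do not give the origin of Minimal Myc, and do not tell whether a culture descends from a single clone.

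An imprinted gene is transcribed mainly from the copy inherited from the mother or from that inherited from the father, and DNA methylation marks laid down in the germ line keep the copies apart. Many imprinted genes act on embryonic growth: genes expressed from the paternal copy, such as Igf2, Dlk1 and Peg3, are best known for supporting growth or precursor cells, and maternally expressed genes, such as H19, Grb10 and Cdkn1c, for restraining it. Neighbouring imprinted genes often share a control region, so that Igf2 and H19, or Dlk1 and Meg3, are read from opposite parental chromosomes. Expression of most of these genes is high in the embryo and low after birth. RNA-seq levels of whole genes, as used here, do not separate the parental copies.

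Levels are FPKM, fragment counts scaled to the length of the transcript and the size of the library. A difference is that of log2(FPKM + 1), a scale on which low genes differ less than their FPKM do, and 2-fold is a difference of 1. With 1 library per culture no difference has a replicate check, no test was run and neighbours in an order of levels have no spread to be set against. In bulk RNA, fewer cells that express a gene and less RNA per cell cannot be told apart. Among 22623 genes without small RNA genes, 11640 had a mean of at least 1 FPKM and are called measured. Their median difference from vector was 0.47 with Myc, 0.42 with MycN and 0.47 with Minimal Myc, and 1.42, 0.76 and 0.80 after the authors' scaling by library, so differences relative to the median are given where they alter a call. Vector was highest in the non-coding RNAs Mir5109 and Malat1, which were picked after their values were seen. Other non-coding RNAs differed in their order, with H19 highest in vector and Meg3 in Minimal Myc. The short microRNA gene Mir5109 made up 33.4% of the summed FPKM of that library, with 185861 FPKM against 6331 to 26320 elsewhere, and the nuclear RNA Malat1 stood at 381 FPKM there and at 64.0 to 192 elsewhere. The part of either in the differences from vector was not tested. Myc itself was 22.2 FPKM with the vector alone, 141 with Myc, 4.36 with MycN and 32.6 with Minimal Myc, and Mycn was 0.390, 0.275, 178 and 95.9 FPKM, so Myc RNA was still present in the vector library. Of 13 fibroblast markers, 12 were at least 1 FPKM in all 4 libraries, while Lum, a matrix proteoglycan gene, was 0 to 0.354 FPKM. The summed level of 6 epithelial markers was 0.140 to 0.663 FPKM, of 5 endothelial markers 0.146 to 1.19 and of 4 hepatocyte markers 0.316 to 0.518. Trophoblast markers, 5 of them, summed to 0.372 to 1.25 FPKM and skeletal muscle markers, 7 of them, to 14.5 to 19.9, of which Acta1 held 13.8 to 19.7. Neural markers, 6 of them, summed to 22.6 to 35.3 FPKM. Of these, 3 were at least 1 FPKM in all 4 libraries (Tubb3, Nes and Map2), while Sox2 was at 0 to 0.123. Immune markers, 6 of them, summed to 11.8 to 15.99 FPKM. Here too 3 were at least 1 FPKM in all 4 libraries (Cd14, Cd68 and Csf1r), while Ptprc was at 0 to 0.0215. The 5 pluripotency and germ cell markers summed to 7.93 to 13.3 FPKM, nearly all of it Nanog, with Dppa3 at 0 to 0.0241.

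The depth behind a low level was estimated from its steps. Single-transcript genes with few fragments lay near whole multiples of a smallest value, 67.8% to 68.9% of them within 0.1 of a whole number. An even spread would give 20% for a step fixed beforehand. The step was instead chosen to make this share largest, so 20% is not a matched comparison. In these steps a fragment on 1 kilobase was worth 0.0149 FPKM with the vector alone, 0.0150 with Myc, 0.0109 with MycN and 0.0115 with Minimal Myc. The fragment numbers given below are estimates from these steps and from transcript lengths of a later annotation, and no count test was run on them.

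RefSeq promoter sequences (build GRCm38.p6, 250 bases before to 50 after each start) were matched by symbol for 8 of the 10 genes, with 15 starts. The bases before the start are shown for Grb10, for the neighbours Dlk1 and Meg3, whose levels parted, and for Plagl1. Grb10 had the widest range of levels and has a CpG-rich start and another close to the median CpG count. Capitals mark CACGTG, the E-box to which Myc binds with Max, and TGCCGC or its reverse complement, a short motif of the imprint-protecting factor ZFP57, each searched on both strands.
Grb10 upstream start (chr11:12037421-12037670, minus strand): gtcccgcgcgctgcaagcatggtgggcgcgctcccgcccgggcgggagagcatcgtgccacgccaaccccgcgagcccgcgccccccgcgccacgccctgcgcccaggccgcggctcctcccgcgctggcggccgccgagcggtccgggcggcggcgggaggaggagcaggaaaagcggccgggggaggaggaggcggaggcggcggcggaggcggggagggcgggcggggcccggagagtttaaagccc
Grb10 downstream start (chr11:12027972-12028221, minus strand): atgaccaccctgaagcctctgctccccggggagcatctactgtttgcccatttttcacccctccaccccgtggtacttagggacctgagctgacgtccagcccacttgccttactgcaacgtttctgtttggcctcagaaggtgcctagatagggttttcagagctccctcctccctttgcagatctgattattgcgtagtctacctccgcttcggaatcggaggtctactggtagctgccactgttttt
Dlk1 (chr12:109452573-109452822, plus strand): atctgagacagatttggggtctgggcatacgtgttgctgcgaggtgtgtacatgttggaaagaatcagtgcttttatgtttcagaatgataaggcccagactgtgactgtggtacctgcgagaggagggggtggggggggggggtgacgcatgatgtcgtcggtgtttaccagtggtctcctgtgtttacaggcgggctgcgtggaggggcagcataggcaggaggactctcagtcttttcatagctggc
Meg3 upstream start (chr12:109540746-109540995, plus strand): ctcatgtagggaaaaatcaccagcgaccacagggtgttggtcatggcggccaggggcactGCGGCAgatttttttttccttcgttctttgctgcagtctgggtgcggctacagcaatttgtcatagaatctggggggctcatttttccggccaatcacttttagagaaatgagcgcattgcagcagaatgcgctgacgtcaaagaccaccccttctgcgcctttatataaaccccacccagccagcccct
Plagl1 (chr10:13090582-13090831, plus strand): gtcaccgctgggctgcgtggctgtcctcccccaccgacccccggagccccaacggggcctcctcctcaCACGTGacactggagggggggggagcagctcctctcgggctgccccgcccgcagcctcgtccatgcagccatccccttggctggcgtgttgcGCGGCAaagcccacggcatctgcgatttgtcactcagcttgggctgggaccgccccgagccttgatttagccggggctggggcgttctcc
The E-box was found at 1 of the 15 starts, that of Plagl1, and in 7.17% of all 32544 RefSeq promoter sequences. TGCCGC was found at 6 starts, Mest starts a few bases apart among them, and in 11.7% of all; the match at the upstream start of Grb10 is not within the bases shown. The 15 starts held 1 to 45 CpG in their 300 bases, against a median of 7 over all. The upstream start of Grb10 held 45 and its downstream start 9, so the shown sequences differ widely in the base pair that carries DNA methylation. The deposited tables hold 1 value per gene and library, so the levels below are not split by start.

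Of the 10 genes, 8 had a range of at least 2-fold over the 4 libraries, against 16.5% of the 22623 genes and 30.0% of the measured ones. Minimal Myc held the highest level of 5 of the 10 (4 in the authors' scaled values), where it was highest for 35.8% of measured genes, and vector the lowest level of 2 (3 when scaled), where vector was lowest for 68.1% of measured genes. Both shares are of unscaled FPKM, so the scaled counts have no matching share here. Against vector, 1 of 10 was at least 2-fold higher in Myc, where 5.87% of genes were, and 3 were lower, where 0.99% were. In MycN 1 was higher, against 4.08% of genes, and 1 lower, against 1.12%. In Minimal Myc 4 were higher, against 7.18%, and 2 lower, against 1.06%. Of the members, 8 are measured. Among measured genes, 11.2%, 7.65% and 13.6% were higher in Myc, MycN and Minimal Myc, and 1.56%, 1.86% and 1.68% lower. The 1 higher member with Myc and with MycN is near that share. The lists below count measured genes only, so their counts against vector stand beside the shares of measured genes. All comparisons with vector share that library. Between the cultures with a Myc protein, MycN had 3 members at least 2-fold above Myc and 1 below, against 1.1% and 1.52% of genes. Minimal Myc had 4 above and 1 below Myc, against 2.52% and 1.24%, and 3 above and 2 below MycN, against 3.86% and 2.12%. Among measured genes the shares were 1.95% and 2.74%, 4.48% and 2.16%, and 6.94% and 3.69% for these comparisons in turn. The members did not move as a block, since in unscaled FPKM every comparison had members in both directions. Split by the parental copy they are known to be read from, the 4 maternally expressed genes had 1 higher and 1 lower with Myc, 0 and 1 with MycN, and 2 and 1 with Minimal Myc against vector. The 6 paternally expressed genes had 0 and 2, 1 and 0, and 2 and 1.

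**Figure D1:**
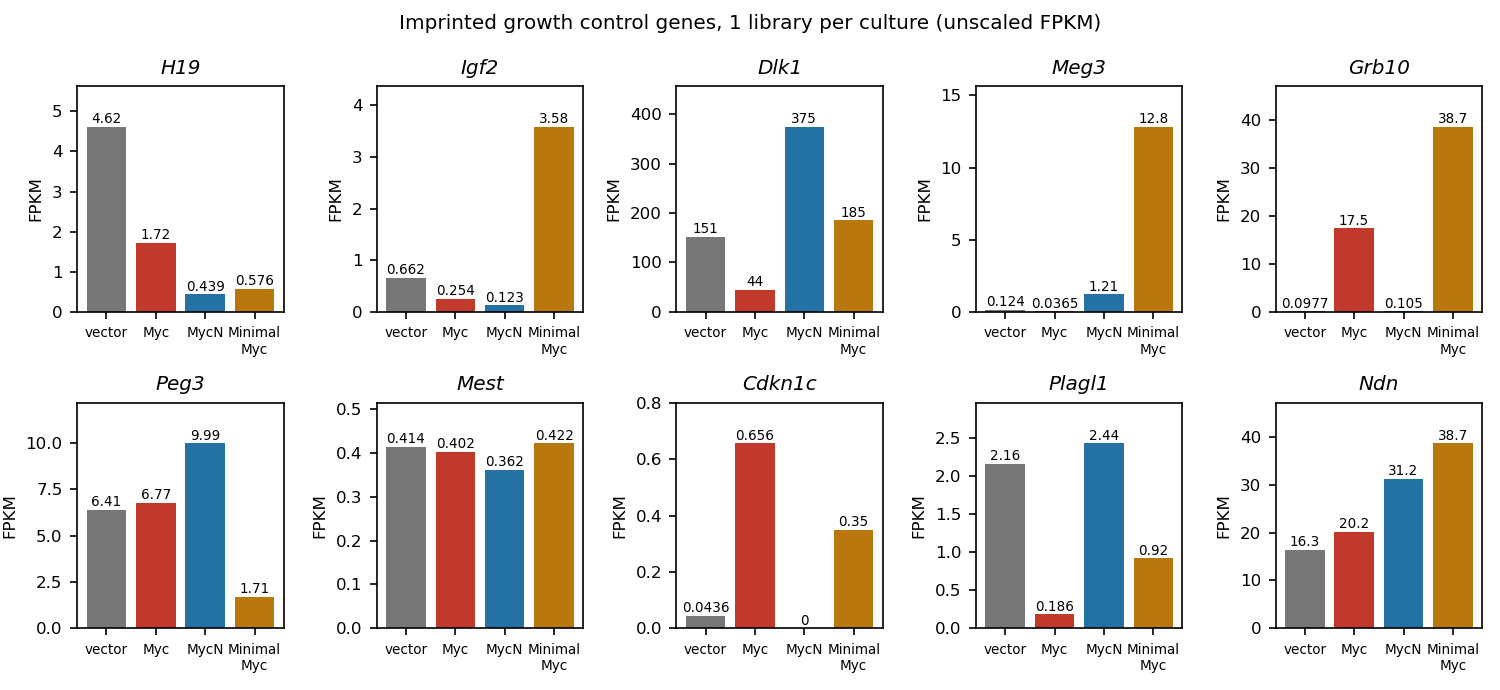
FPKM of each of the 10 genes (vertical axis, from 0, a separate range per gene) in the vector, Myc, MycN and Minimal Myc libraries, 1 bar per library with its value above. Grb10 stands at 17.5 and 38.7 FPKM in Myc and Minimal Myc and at 0.0977 and 0.105 in the other libraries, while Mest lies between 0.362 and 0.422 in all 4.

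Grb10, an adaptor that binds insulin and IGF receptors and limits their signalling, had the widest range. It was 0.0977 FPKM with the vector alone, 17.5 with Myc, 0.105 with MycN and 38.7 with Minimal Myc. It was thus on in Myc and Minimal Myc and near 0 in vector and MycN. The low levels correspond to an estimated 29.8 to 31.8 fragments in vector and 44.1 to 47.0 in MycN, so the gene was detected there. The high ones correspond to 5317 to 5674 fragments in Myc and 15383 to 16416 in Minimal Myc. By FPKM ratio Myc was 179-fold and Minimal Myc 396-fold above vector, and the log2 differences were 4.07 and 5.18. Of measured genes, 99.9% had a smaller difference from vector in each of these libraries. MycN differed from vector by 0.01. Minimal Myc was 1.10 above Myc, or 0.47 in the authors' scaled values, which is under 2-fold. Grb10's neighbour Ddc, an aromatic amino acid decarboxylase that is imprinted in heart, was at 0.00641 to 0.0731 FPKM, near 0 in all 4 libraries.

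The relatives and partners of Grb10 did not share its pattern of levels. Of 8 adaptor relatives and binding partners, 7 were measured. At least 2-fold above vector were 0 with Myc, 3 with MycN and 1 with Minimal Myc, with 0 lower in each, and medians of 0.75, 0.84 and 0.60 beside 0.47, 0.42 and 0.47 over all measured genes. Grb14, the closest relative, was 10.7 FPKM with the vector alone, 18.7 with Myc, 19.97 with MycN and 31.9 with Minimal Myc. Gigyf2, named for its binding to Grb10, was 8.86, 18.7, 23.8 and 15.2 FPKM. Both were present in vector and MycN, where Grb10 was near 0.

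Igf2, the fetal growth factor that acts through the IGF1 receptor, was a low gene in 3 cultures. It was 0.662 FPKM with the vector alone, 0.254 with Myc, 0.123 with MycN and 3.58 with Minimal Myc. Only Minimal Myc lay above 1 FPKM, with an estimated 1180 to 1416 fragments against 42.4 to 50.9 in MycN. Minimal Myc was 1.46 above vector on the log2 scale, or 0.99 relative to the median gene, just under 2-fold. It was 1.87 above Myc and 2.03 above MycN.

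H19, a growth-restraining non-coding RNA read from the other parental copy next to Igf2, had its highest level where Igf2 did not. It was 4.62 FPKM with the vector alone, 1.72 with Myc, 0.439 with MycN and 0.576 with Minimal Myc. Vector was the highest of the 4, and MycN and Minimal Myc the lowest. On the log2 scale Myc was -1.05 from vector, MycN was -1.96 and Minimal Myc -1.83. After scaling by library the first was -0.32 and no longer 2-fold, and the others were -1.84 and -1.69. Between vector and Minimal Myc, Igf2 and H19 thus lay in opposite directions, while between vector and MycN both were lower in MycN (Igf2 by -0.57). Mir675, the microRNA gene inside H19, is listed at 0 in all 4 libraries, as are Mir483 inside Igf2 and Mir335 inside Mest. The libraries were made from polyadenylated RNA, so these listings say nothing of the mature microRNAs.

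The receptors and signalling genes that Igf2 acts through varied less in unscaled FPKM. Igf2r, the imprinted receptor that clears Igf2 to the lysosome, was 17.2 FPKM with the vector alone, 14.3 with Myc, 17.0 with MycN and 15.8 with Minimal Myc. Igf1r, the receptor that passes the growth signal on, was 5.26, 6.09, 5.69 and 3.97 FPKM. Insr, the insulin receptor gene, was 2.74, 3.88, 5.62 and 3.91. All 3 receptors were present in every library, and in unscaled FPKM none of them was 2-fold from vector, Insr in MycN being 0.82 above it on the log2 scale. In scaled values Igf1r with Myc (12.4 against 5.26 in vector) was past 2-fold. So was Insr with Myc and MycN (7.91 and 7.31 against 2.74). The median measured gene was itself 1.42 above vector in Myc and 0.76 in MycN after scaling. Of 28 genes of IGF and insulin signalling, 27 were measured. At least 2-fold higher than vector were 2 with Myc, 3 with MycN and 1 with Minimal Myc, and 0 were lower, with medians of 0.39, 0.54 and 0.34. Of all measured genes, 11.2%, 7.65% and 13.6% were higher in these libraries and 1.56%, 1.86% and 1.68% lower. Foxo3, a transcription factor that insulin signalling keeps out of the nucleus, was 4.16 FPKM with the vector alone, 12.9 with Myc, 13.02 with MycN and 5.31 with Minimal Myc. Pik3r2, a regulatory subunit of PI3 kinase, was 27.4, 36.3, 70.3 and 34.8 FPKM.

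Dlk1, a Notch-like membrane protein of precursor cells that holds back fat cell formation, was the most abundant member. It was 151 FPKM with the vector alone, 44.0 with Myc, 375 with MycN and 185 with Minimal Myc. Myc was lowest and MycN highest, an 8.53-fold gap in FPKM and a log2 difference of 3.06. Myc was -1.76 from vector, or -0.75 in scaled values, which is under 2-fold. MycN was 1.30 above vector, or 0.88 relative to the median gene, also under 2-fold. Minimal Myc differed from vector by 0.29 and by -0.19 relative to the median gene, so no direction is given.

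Meg3, a non-coding RNA gene downstream of Dlk1 read from the maternal copy, had another order of levels. It was 0.124 FPKM with the vector alone, 0.0365 with Myc, 1.21 with MycN and 12.8 with Minimal Myc. Minimal Myc was far above the others, 3.62 over vector and 2.65 over MycN on the log2 scale, and Myc was the lowest. The 4.4 to 35 fragments estimated in Myc, a wide range because the annotated transcripts differ in length, show how thin that low value is. Dlk1 and Meg3 shared their lowest library but not their highest.

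The transcripts that follow Meg3 on the chromosome were high in the same library. Rian, a host of small nucleolar RNAs, was 0.134 FPKM with the vector alone, 0.163 with Myc, 0.988 with MycN and 9.74 with Minimal Myc. Mirg, a microRNA host at the far end of the cluster, was 0.108, 0.320, 0.214 and 0.903 FPKM. Both had their highest level in Minimal Myc, as Meg3 did. Rtl1, a retrotransposon-derived gene on the paternal copy whose annotated span overlaps Meg3, was 0.0593, 0.329, 0.110 and 0.0476 FPKM and was highest in Myc. Dio3, a thyroid hormone deiodinase at the end of the domain, stayed at 0.00879 to 0.0135 FPKM. Begain, the gene before Dlk1, was 0.289 FPKM with the vector alone, 0.700 with Myc, 0.634 with MycN and 1.13 with Minimal Myc.

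**Figure D2:**
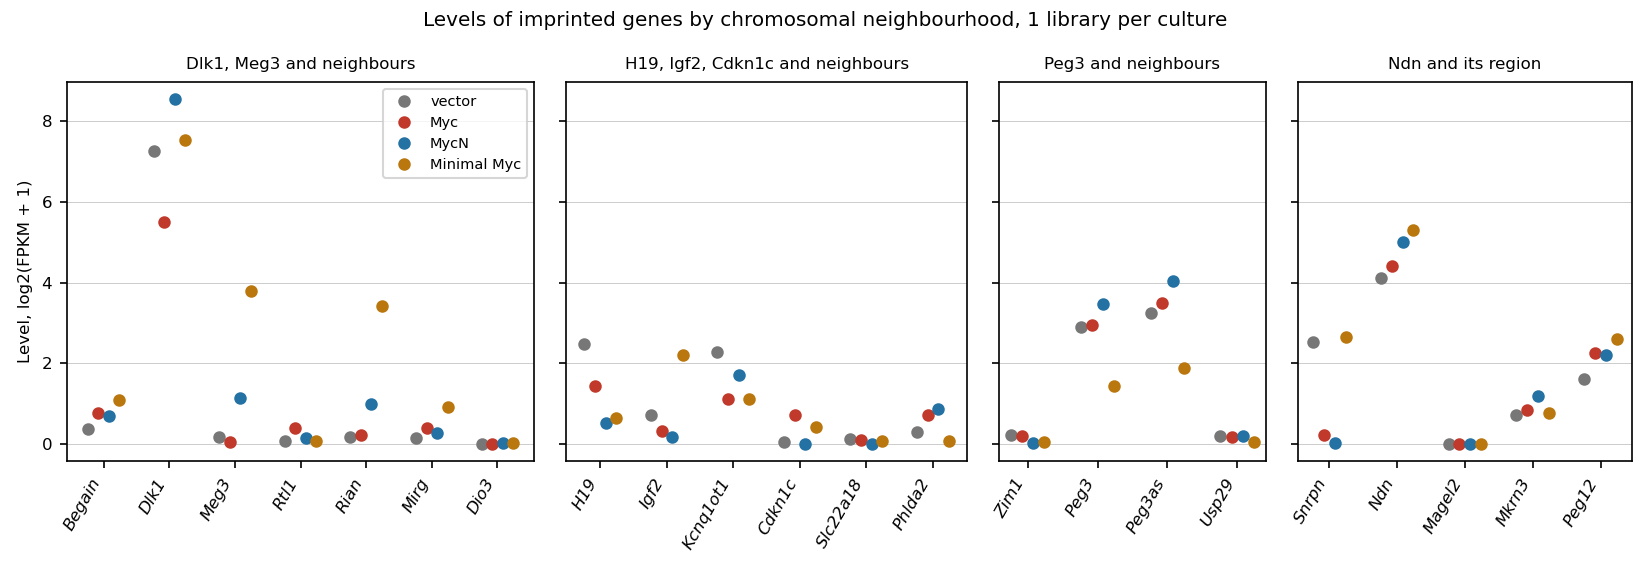
Level as log2(FPKM + 1) (vertical axis) of the imprinted genes in 4 chromosomal regions, 1 point per library, coloured by culture. In the first panel Meg3 and Rian have their highest point in Minimal Myc (12.8 and 9.74 FPKM) while Dlk1 has it in MycN (375 FPKM); in the third, Peg3 and Peg3as have their lowest in Minimal Myc.

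Fat cell markers were set beside Dlk1 because of its role. The summed level of 6 adipocyte markers was 7.97 FPKM with the vector alone, 9.94 with Myc, 54.9 with MycN and 10.95 with Minimal Myc. Fabp4, a fatty acid carrier, made up most of it with 53.0 FPKM in MycN and 7.61 in vector, and Pparg, the regulator of fat cell formation, was 1.57 and 0.256. Adipoq and Plin1, which mark mature fat cells, were at 0.0727 and 0.0516 FPKM in MycN. The culture with the highest Dlk1 thus had the highest Fabp4 and Pparg, with the markers of mature fat cells near 0. Of the remaining markers, Cidec was 0.121 FPKM in MycN. Cebpa was highest in Minimal Myc instead, at 0.277 FPKM against 0.0921 in MycN.

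Notch pathway genes, to which Dlk1 is related, had 14 of 23 members measured. At least 2-fold above vector were 1 with Myc, 2 with MycN and 1 with Minimal Myc and 0 were below, with medians of 0.45, 0.45 and 0.28. Dlk2, the closest relative of Dlk1 and not known to be imprinted, was 7.74 FPKM with the vector alone, 15.3 with Myc, 17.9 with MycN and 22.5 with Minimal Myc. Notch3, a receptor of mesenchymal cells, was 2.03, 5.67, 4.76 and 4.30 FPKM. Neither had the low level in Myc that Dlk1 had.

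Peg3, a large zinc finger protein gene read from the paternal copy, was low in a single culture. It was 6.41 FPKM with the vector alone, 6.77 with Myc, 9.99 with MycN and 1.71 with Minimal Myc. The estimated fragments were 1268 in Minimal Myc and 3657 to 7788 in the others. Minimal Myc was -1.45 from vector, -1.52 from Myc and -2.02 from MycN on the log2 scale. Peg3as, the transcript antisense to Peg3, was 8.48, 10.3, 15.4 and 2.68 FPKM in the same order of libraries, and was looked up after the Peg3 values were seen. The library protocol keeps strand, but no source used here says whether the counting used it, so reads of these overlapping genes cannot be told apart. The neighbours Zim1 and Usp29 were at 0.0194 to 0.166 and 0.0411 to 0.159 FPKM, near 0 throughout.

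Ndn, the gene of necdin, a MAGE family protein that binds E2F factors and restrains the cell cycle, was present in all 4 cultures. It was 16.3 FPKM with the vector alone, 20.2 with Myc, 31.2 with MycN and 38.7 with Minimal Myc. Minimal Myc was 1.19 above vector, 1.55 in scaled values, and 0.72 relative to the median gene, which is under 2-fold. MycN was 0.89 above vector, past 2-fold in scaled values (1.26) and 0.47 relative to the median gene. Myc was 0.29 above vector, past 2-fold in scaled values (1.28) but -0.18 relative to the median gene, so its direction depends on the scaling. Within the same imprinted region Magel2 was at 0.00332 to 0.00757 FPKM, Mkrn3 at 0.645 to 1.27 and Peg12 at 2.07 to 5.09.

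Snrpn, a splicing protein gene at the centre of that region, differed far more than Ndn. It was 4.80 FPKM with the vector alone, 0.170 with Myc, 0.0127 with MycN and 5.33 with Minimal Myc. Vector and Minimal Myc had similar levels, and Myc and MycN were near 0, with log2 differences from vector of -2.31 and -2.52. Snurf, which is read from the same start, was 0.312, 0.161, 0.0115 and 0.314 FPKM, and the sharing of fragments between these overlapping genes makes both values uncertain. Of the relatives of Ndn in the MAGE family, Maged1 was 62.5 FPKM with the vector alone, 108 with Myc, 123 with MycN and 220 with Minimal Myc, and Maged2 was 39.5, 123, 80.7 and 76.9. Of 10 zinc finger and MAGE relatives of Peg3, Plagl1 and Ndn, 6 were measured, with 2 at least 2-fold higher than vector in Myc, 1 with MycN and 2 with Minimal Myc and 0 lower. The list medians were 0.52, 0.59 and 0.81.

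Plagl1, also called Zac1, is a zinc finger transcription factor known to regulate other imprinted genes, Igf2, H19, Dlk1 and Cdkn1c among them. It was 2.16 FPKM with the vector alone, 0.186 with Myc, 2.44 with MycN and 0.920 with Minimal Myc. Myc was the lowest, with an estimated 62.8 fragments against 735 in vector and 1131 in MycN. The log2 difference of Myc from vector was -1.42, or -1.20 in scaled values, and MycN was 1.54 above Myc. Minimal Myc was -0.72 from vector and -1.19 relative to the median gene. Its relatives Plag1, at 2.43 to 2.91 FPKM, and Plagl2, at 4.87 FPKM with the vector alone and 8.34 to 11.8 otherwise, were not low in Myc.

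Cdkn1c, the CDK inhibitor p57 that halts the cell cycle in differentiating tissue, was under 1 FPKM in all 4 libraries. It was 0.0436 FPKM in vector, 0.656 in Myc, listed at 0 with MycN and 0.350 with Minimal Myc. The estimated fragments were 4.90, 74.7, 0 and 52.1, so Myc and Minimal Myc, the cultures with high Grb10, had more Cdkn1c fragments than vector or MycN. The log2 differences from vector, 0.67, -0.06 and 0.37, are small on this scale because the gene is low, and the last was -0.10 relative to the median gene. In scaled values Myc was 1.17 above vector, past 2-fold, and with a pseudocount of 0.1 in place of 1 it was 2.40. Kcnq1ot1, the non-coding RNA that silences Cdkn1c on the paternal copy, was 3.87 FPKM with the vector alone, 1.16 with Myc, 2.25 with MycN and 1.15 with Minimal Myc. It was lowest in the libraries where Cdkn1c was highest. Phlda2, a placental growth inhibitor of the same domain, was 0.222, 0.657, 0.820 and 0.0632 FPKM, and Slc22a18 was at 0.00821 to 0.0911.

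The other CDK inhibitors were far more abundant than Cdkn1c per length of transcript. Cdkn2a, which encodes p16 and p19Arf, was 227 FPKM with the vector alone, 536 with Myc, 543 with MycN and 737 with Minimal Myc. Cdkn2b, its neighbour, was 21.6, 31.5, 24.6 and 70.5 FPKM. Cdkn1a, the p53 target p21, was 25.005, 9.92, 16.5 and 8.18 FPKM and had its highest level in vector. Cdkn1b, the inhibitor p27, was 13.8, 28.3, 39.6 and 16.7 FPKM. Of 15 CDK inhibitors, cyclins and kinases, all measured, 1, 2 and 3 were at least 2-fold above vector in Myc, MycN and Minimal Myc, and 1, 0 and 1 below. The medians were 0.74, 0.40 and 0.61.

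Mest, a hydrolase-like gene read from the paternal copy and a marker of embryonic mesoderm, had the narrowest range of the members. It was 0.414 FPKM with the vector alone, 0.402 with Myc, 0.362 with MycN and 0.422 with Minimal Myc, with an estimated 58.7 to 90.9 fragments. Its range was 0.06 on the log2 scale, which holds low genes close together. In scaled values Myc was 0.36 above vector, so the directions depend on the scaling. Copg2, which overlaps the end of Mest, was 8.41, 10.9, 11.3 and 8.02 FPKM.

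**Figure D3:**
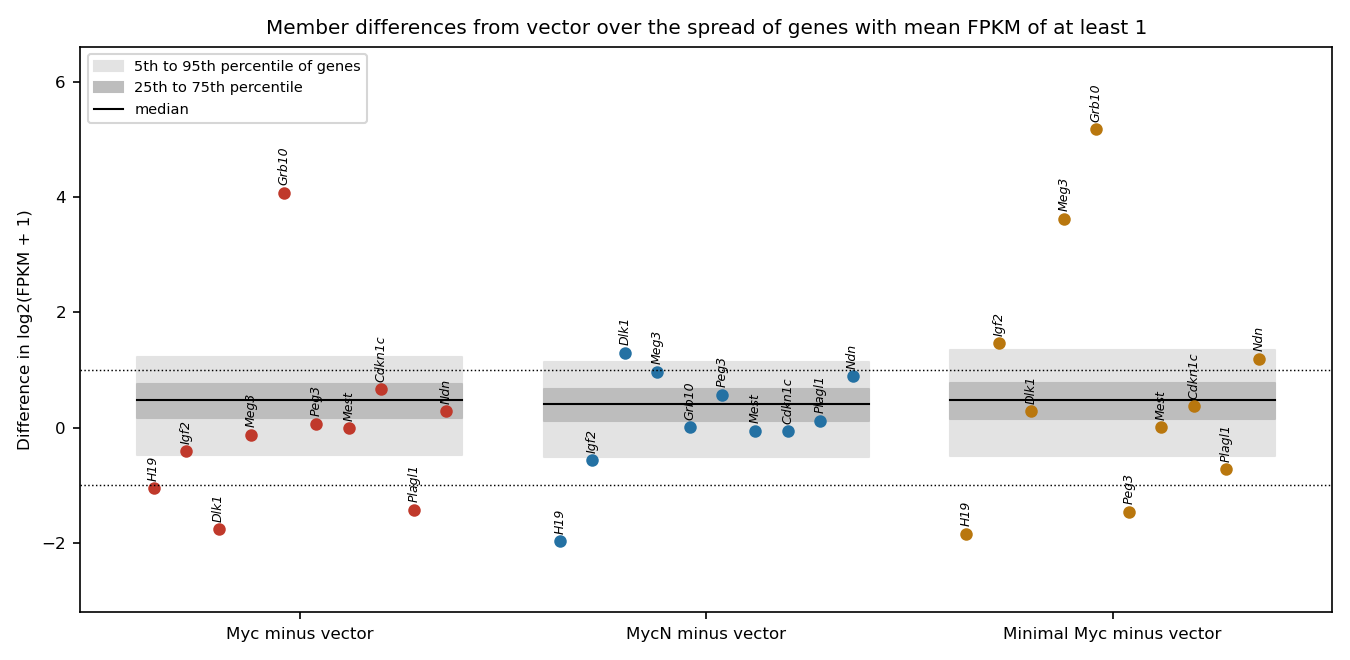
Difference from vector in log2(FPKM + 1) (vertical axis) of each member (points) in Myc, MycN and Minimal Myc, over the 5th to 95th and 25th to 75th percentiles of the 11640 measured genes (grey bands) and their median (line); dotted lines mark 2-fold. Grb10 lies at 4.07 and 5.18 in Myc and Minimal Myc, and H19 lies below the outer band in all 3.

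A list of 60 other imprinted genes, 32 of them measured, was set beside the members. A range of at least 2-fold over the 4 libraries was found for 15 of the 60, all of them measured, which is 46.9% of the 32 beside 30.0% of all measured genes. Against vector, 2 measured genes were at least 2-fold above and 4 below it with Myc, 3 and 1 with MycN, and 3 and 3 with Minimal Myc. Of all measured genes, 11.2% and 1.56%, 7.65% and 1.86%, and 13.6% and 1.68% were above and below. The medians of 0.09, 0.31 and 0.20 lay below those of all measured genes, 0.47, 0.42 and 0.47. Besides Rian and Snrpn, Sgce and Dcn stood out by their level in Myc. Dcn, also among the fibroblast markers, was 81.6 FPKM with the vector alone, 330 with Myc, 135 with MycN and 247 with Minimal Myc. Sgce, a sarcoglycan gene, was 13.5 FPKM with the vector alone, 2.36 with Myc, 12.8 with MycN and 15.8 with Minimal Myc. Peg10, the retrotransposon-derived gene that starts beside it, was 3.36, 2.13, 7.98 and 4.22 FPKM, so Myc held the lowest level of both, although for Peg10 vector was lowest in scaled values (3.36 against 4.36 in Myc). Gnas, the most abundant of the list, was 622, 766, 986 and 707 FPKM.

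Of 23 genes of imprint maintenance and DNA methylation, 20 were measured. Dppa3, which protects imprints in the early embryo, was not among them, at 0.0241 FPKM in vector and listed at 0 in the others. At least 2-fold above vector were 1 with Myc, 2 with MycN and 1 with Minimal Myc and 0 were below, with medians of 0.68, 0.63 and 0.52. Zfp57, which protects methylated imprints, was 12.7 FPKM with the vector alone, 21.7 with Myc, 30.3 with MycN and 15.1 with Minimal Myc. Dnmt3l, a cofactor of germ line methylation, was 0.0708, 0.708, 1.65 and 1.67 FPKM, lowest in vector. Dnmt1, which copies methylation at replication, was 34.997, 56.5, 45.3 and 56.7 FPKM.

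**Figure D4:**
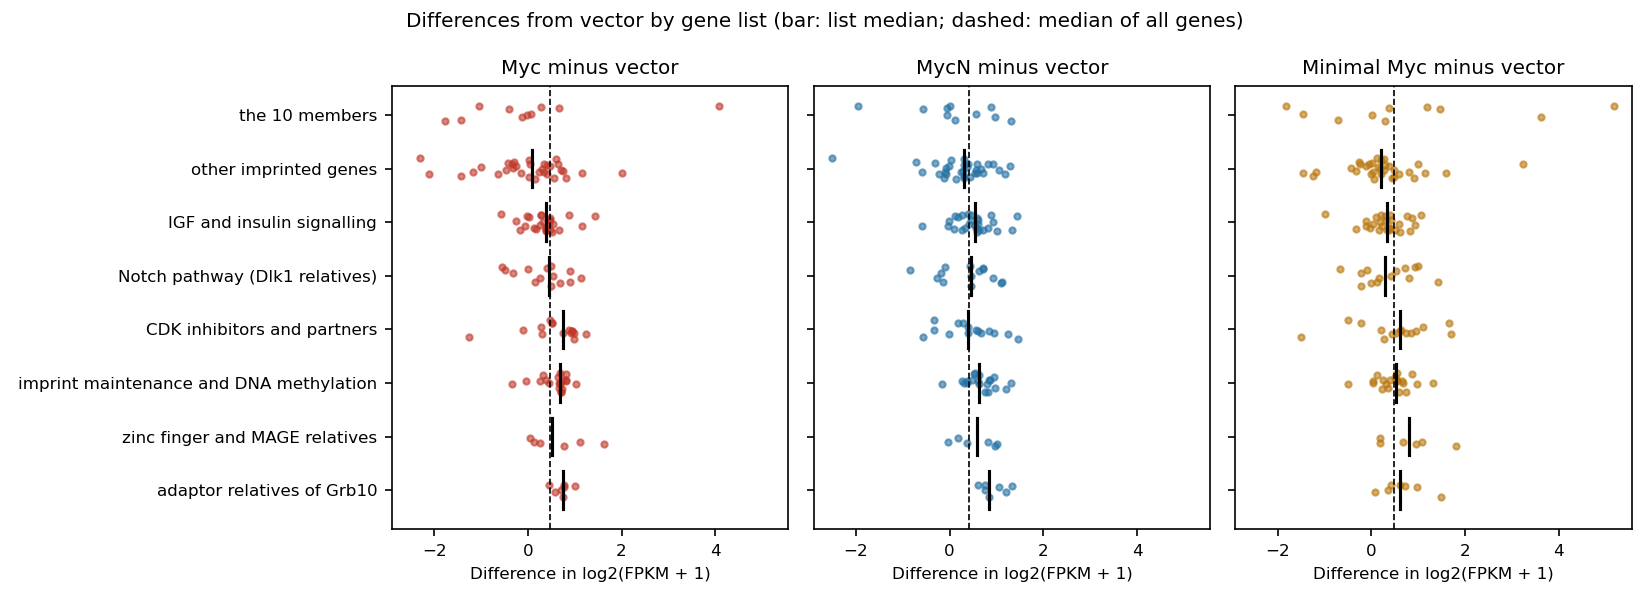
Difference from vector in log2(FPKM + 1) (horizontal axis) of the 10 members and of the measured genes of 7 related lists (rows), 1 point per gene, for Myc, MycN and Minimal Myc; bars are list medians and the dashed line is the median of all measured genes. The members reach from -1.83 to 5.18 in Minimal Myc, and the imprint maintenance list is centred at 0.68, 0.63 and 0.52.

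For each member with at least 2-fold difference from vector, the genes with the most similar pattern were sought among 11349 measured genes with no library at 0. Likeness was the Euclidean distance between the 3 log2 differences from vector, which share the vector library. Meg3 was nearest to Rian (0.44) and then to Alpl, the bone and liver type alkaline phosphatase gene (0.66). Alpl was 0.372 FPKM with the vector alone, 0.183 with Myc, 2.52 with MycN and 10.7 with Minimal Myc, an order it shared with Meg3. Grb10 had no match as near by this distance, in which wide differences weigh most. The nearest, Sfrp1, a secreted Wnt inhibitor, stood 1.64 away at 0.198, 5.58, 0.138 and 33.9 FPKM. Gpx7, an endoplasmic reticulum peroxidase, stood 1.96 away at 0.103, 8.41, 0.243 and 11.3 FPKM. Like Grb10, both were below 1 FPKM in vector and MycN and above it in Myc and Minimal Myc. H19 was nearest to the smooth muscle actin gene Actg2 (0.24), at 16.9, 7.18, 4.09 and 3.48 FPKM, and to Ptprf, a receptor phosphatase gene (0.43). Dlk1 was nearest to Pdlim4 (0.59), at 13.6, 4.84, 32.8 and 22.4 FPKM, and to Angptl4 (0.93), a secreted inhibitor of lipoprotein lipase. Igf2 was nearest to Runx3 (0.06) and Slit3 (0.15), Peg3 to Sh3gl3 (0.17) and Zdhhc2 (0.22), Plagl1 to Kcnh2 (0.25) and Smad6 (0.30), and Ndn to Kctd17 (0.08) and Kdelr3 (0.09). Of these 16 genes, Rian alone is imprinted in the list used here.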

How the data were processed

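RNA-seq was made from polyadenylated RNA of 4 cultures, 1 library each. The authors deposited FPKM values in a table of 26608 identifier rows and the same values times a factor per library in another. The submitters' processing notes list mm9, Cufflinks 2.2.0 and TopHat2 2.0.11 without saying what each did. The 32 rows that hold a NanoString signal cover 0 members and were left out. Identical rows of a gene were merged and differing rows summed (189 genes, 0 of them members). Small RNA genes (743) were left out of backgrounds. Differences of log2(FPKM + 1) were computed with pandas 2.3.3 and counted at 2-fold. The calculation was also run on simulated data, made from well expressed genes of the vector library with changes larger than 2-fold. That run checks the code only and does not bear on low genes, many members among them. Members and lists were chosen with earlier results of these data known. Genes named beside the members are a fixed list of neighbours, receptors and related genes (Igf2r, Igf1r, Insr, Rian, Mirg, Rtl1, Gnas, Snrpn, Sgce, Peg10, Copg2, Cdkn1a, Cdkn1b), the 2 measured genes of each list that differed most from vector, and the nearest patterns. Malat1, Mir5109, Dppa3, Fabp4, Pparg, Dnmt1, Plag1, Plagl2, Dcn, Ddc, Dio3, other neighbours and individual cell type markers were named after their values were seen. Fragment numbers used the best step and length offset (200 or 220 bases) found over single-transcript genes, with GENCODE transcript lengths on GRCm38; H19 had no length. Promoters came from RefSeq (GRCm38.p6) by symbol. No coordinates of mm9 were used.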

Additional observations from a re-analysis of the deposited data

How the results depend on the processing

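No paired analysis was possible because each culture has 1 library. Over 7 alternatives to each of 12 counts of members, 65 counts stayed within 1.5 times and 19 moved. Of those that stayed, 12 used the highest row of a gene and 12 only members with a mean of at least 1 FPKM. Neither setting could move a count. Each member has 1 distinct row, and the members left out, Mest and Cdkn1c, were not 2-fold in any comparison of unscaled FPKM. For Myc against vector, members higher numbered 1 and became 3 in the authors' scaled FPKM and 2 with a pseudocount of 0.1 or 0.01; members lower numbered 3 and became 1 in scaled FPKM and 5 with a pseudocount of 0.01. For MycN against vector, members higher numbered 1 and became 3 in scaled FPKM, 2 with either pseudocount and 0 when centred on the median gene or scaled to the upper quartile; members lower numbered 1 and became 2 with a pseudocount of 0.1 and 3 with 0.01. For Minimal Myc against vector, members higher numbered 4 and became 2 when centred. Members lower in MycN than Myc numbered 1 and became 3 in scaled FPKM and with either pseudocount. Members lower in Minimal Myc than Myc numbered 1 and became 2 in the same 3 settings. No member difference of 2-fold or more changed sign under these alternatives. Depth limits the members under 1 FPKM most, above all Cdkn1c in vector and MycN and Meg3 in Myc.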
